A study of Rattus norvegicus with 23 samples.

Results

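The 10 genes described here were grouped under lactate transport and lactate dehydrogenase. Transport of lactate and enzyme activity were not measured for any of them. They were taken by their symbols from the deposited rat count table, of which they are 10 of 30452 genes, and no measured value entered the choice. They comprise 5 transporters of the monocarboxylate family (Slc16a1, Slc16a3, Slc16a6, Slc16a7 and Slc16a13), the membrane glycoproteins Bsg and Emb that escort such transporters to the cell surface, and 3 lactate dehydrogenase genes (Ldha, Ldhb and Ldhd). The RNA came from NRK-52E cells, an epithelial line of rat kidney tubule, and from NRK-49F cells, a fibroblast line of rat kidney. Each is an established line, so replicates are samples of that line and not animals. All samples, the controls included, had spent 24 h in serum-free medium before an incubation of 48 h in control medium of pH 7.4 or in acidic medium of pH 6.0, which asks how extracellular acidity alters gene expression in each cell type. There were 6 NRK-52E samples at pH 7.4 and 6 at pH 6.0, and 6 NRK-49F samples at pH 7.4 and 5 at pH 6.0. The labels also assign them to sample groups, 1 and 3 for the NRK-52E line, 4 and 6 for the NRK-49F line, each with 3 samples per pH except group 4 at pH 6.0 with 2. What a sample group stands for is not given in the sources used here, so results are also given within each of them.

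Libraries held 16412564 to 34250535 counts on genes. Levels are given as FPM, a unit that the study names without stating its formula. Here the counts of a gene were divided by the TMM-scaled library size (edgeR's cpm), without correction for gene length. These levels thus compare samples for a gene and not genes with each other. In these libraries 3 counts, taken as the smallest amount the depth can show, corresponded to 0.0839 to 0.203 FPM. A gene is called here when its Benjamini-Hochberg adjusted p in edgeR's quasi-likelihood test over all 14777 tested genes was under 0.05, and each adjusted p below is from that test. The study calls its samples biological, and neither its methods nor the labels say that they were independent cultures, so p-values measure the spread between these samples, which may be technical. In bulk RNA, less RNA per cell and fewer expressing cells cannot be told apart.

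Lactate dehydrogenase is a tetramer of A and B subunits, and the A subunit prevails in glycolytic tissues while the B subunit prevails in oxidative ones such as heart and renal cortex. Lactate leaves or enters cells together with a proton through monocarboxylate transporters, which makes their flux depend on the pH on both sides of the membrane. In the kidney, tubule cells take up lactate for oxidation and gluconeogenesis, whereas glycolytic cells release it.

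The labelled cell types were checked against marker genes. Of 9 epithelial markers only Krt8 and Krt7 passed the filter on low counts, and both fell in each line. Krt18, Epcam, Cdh1, Cldn3, Cldn7 and Esrp1 had at most 16 counts in any sample. No row of the count table carried the symbol Krt19. The summed epithelial markers were 463 to 683 FPM in NRK-52E cells at pH 7.4 and 199 to 265 FPM at pH 6.0, below the 668 to 1207 FPM and 438 to 697 FPM of NRK-49F cells. Krt7 itself was higher in NRK-52E cells, with a mean of 21.8 FPM at pH 7.4 against 1.42 FPM. Most of the epithelial sum was Krt8, with a mean of 499 FPM in NRK-52E cells and 839 FPM in NRK-49F cells at pH 7.4. Krt18, Epcam, Cdh1, Cldn3, Cldn7 and Esrp1 were absent or nearly absent from the counts of the line labelled epithelial. Fibroblast markers summed to 4981 to 8160 FPM in NRK-52E cells at pH 7.4 and 1842 to 3120 FPM at pH 6.0, and to 10769 to 13764 FPM and 7415 to 9951 FPM in NRK-49F cells. Col3a1 alone made up most of the NRK-52E sum, with a mean of 6149 FPM at pH 7.4 against 1212 FPM in NRK-49F cells. Without Col3a1 the sum was 118 to 303 FPM in NRK-52E cells at pH 7.4 and 9614 to 12507 FPM in NRK-49F cells. Of the 9 fibroblast markers tested, 8 fell with acidic medium in NRK-52E cells, beside 36.6% of all tested genes. In NRK-49F cells 3 fell, beside 14.4%, and none rose in either line. Among the 8, Pdgfra, Lum and Vcam1 had means of at most 1.83 FPM in NRK-52E controls. Their highest control value was in A021, described with Ldhb below. The leukocyte marker Cd68 rose in both lines, to a mean of 229 FPM in NRK-49F cells at pH 6.0, while Ptprc had at most 6 counts. Of the endothelial markers, Pecam1 rose in NRK-52E cells and had a mean of at most 1.12 FPM in any condition, and Kdr was at 0 in all samples. The part of these shifts in the results on lactate genes was not tested.

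Promoter sequences of 8 of the 10 genes were found in RefSeq (build GRCr8), each spanning 250 bases before and 50 bases after the annotated start. Slc16a6 and Slc16a13 were not among them. The windows were searched on both strands for ACGTG and GCGTG, the core that hypoxia-inducible factors bind, and for CACGTG, the E-box of Myc and Max, which contains ACGTG on each strand. Those of Slc16a1, Ldha and Bsg are shown, which are the 3 of the 8 that held CACGTG. Its presence in each window shown thus follows from which windows are shown. Capitals mark every match to the 3 motifs on either strand.
Slc16a1, GRCr8 chr2:194812410-194812709, plus strand: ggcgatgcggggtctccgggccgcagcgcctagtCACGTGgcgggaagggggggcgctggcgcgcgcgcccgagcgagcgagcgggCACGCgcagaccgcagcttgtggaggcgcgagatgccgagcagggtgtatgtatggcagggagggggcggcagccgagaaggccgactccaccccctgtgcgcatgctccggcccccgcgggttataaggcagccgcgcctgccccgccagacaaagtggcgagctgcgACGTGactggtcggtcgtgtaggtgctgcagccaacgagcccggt
Ldha, GRCr8 chr1:106507842-106508141, plus strand: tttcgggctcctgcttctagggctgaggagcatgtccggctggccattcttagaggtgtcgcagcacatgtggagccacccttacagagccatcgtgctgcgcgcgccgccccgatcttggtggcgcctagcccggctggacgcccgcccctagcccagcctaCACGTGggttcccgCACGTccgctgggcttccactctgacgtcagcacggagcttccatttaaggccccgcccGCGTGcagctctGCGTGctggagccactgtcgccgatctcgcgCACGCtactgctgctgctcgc
Bsg, GRCr8 chr7:10650956-10651255, minus strand: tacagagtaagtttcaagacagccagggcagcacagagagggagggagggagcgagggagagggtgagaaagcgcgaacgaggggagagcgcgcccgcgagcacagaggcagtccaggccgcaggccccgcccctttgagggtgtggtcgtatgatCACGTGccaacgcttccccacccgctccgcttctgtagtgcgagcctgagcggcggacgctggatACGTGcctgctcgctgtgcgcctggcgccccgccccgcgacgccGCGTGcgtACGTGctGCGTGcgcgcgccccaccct
Each of these 3 windows held 1 CACGTG, which began 216 bases before the start in Slc16a1, 87 bases before it in Ldha and 94 bases before it in Bsg. Of all 33469 rat promoters of this length, 6.42% held CACGTG, 19.3% held ACGTG, 29.7% held GCGTG and 41.6% held any of them. The windows of Slc16a7 and Ldhd held 1 ACGTG each and that of Ldhb held 1 GCGTG, while those of Slc16a3 and Emb held none of the motifs. The 3 windows shown were rich in G and C, with 72.7% in Slc16a1, 66.7% in Ldha and 69% in Bsg. A match is a feature of the letters and not a measurement of binding.

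All 10 genes passed the filter on low counts, which asked for 0.504 CPM in at least 5 samples of any kind. Of these, 7 passed it in both lines, while Slc16a7 and Ldhb passed through NRK-49F samples only and Slc16a6 through acidic NRK-52E samples, so that counts over all 10 are a description. In NRK-52E cells 8 of the 10 were called, 2 higher and 6 lower, beside 61.2% of all tested genes (24.7% higher and 36.6% lower). Their median log2 fold change was -0.73, beside -0.12 over all tested genes. In NRK-49F cells 3 of the 10 were called, 2 higher and 1 lower, beside 28.9% of all tested genes (14.5% higher and 14.4% lower), with medians of 0.07 and 0.00. The difference between the changes of both lines was called for 4 of the 10, in each case lower in NRK-52E cells, beside 41.4% of all tested genes (16.8% higher and 24.7% lower). FPM values of both pH values did not overlap for 4 genes in NRK-52E cells, all of them lower at pH 6.0, beside 38.6% of tested genes (15.4% higher and 23.2% lower). In NRK-49F cells they did not overlap for 4 genes, 2 higher and 2 lower, beside 20.6% of tested genes (10.4% higher and 10.2% lower). Among the 7 genes that passed in both lines, 6 were called in NRK-52E cells (1 higher, 5 lower), 3 in NRK-49F cells and 3 for the difference. Without the NRK-52E control A021, described with Ldhb below, 6 of the 10 were called in NRK-52E cells, beside 58.6% of the genes then tested. With each line fitted alone, 5 of the 7 genes left were called there, beside 62.3%.

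**Figure D1:**
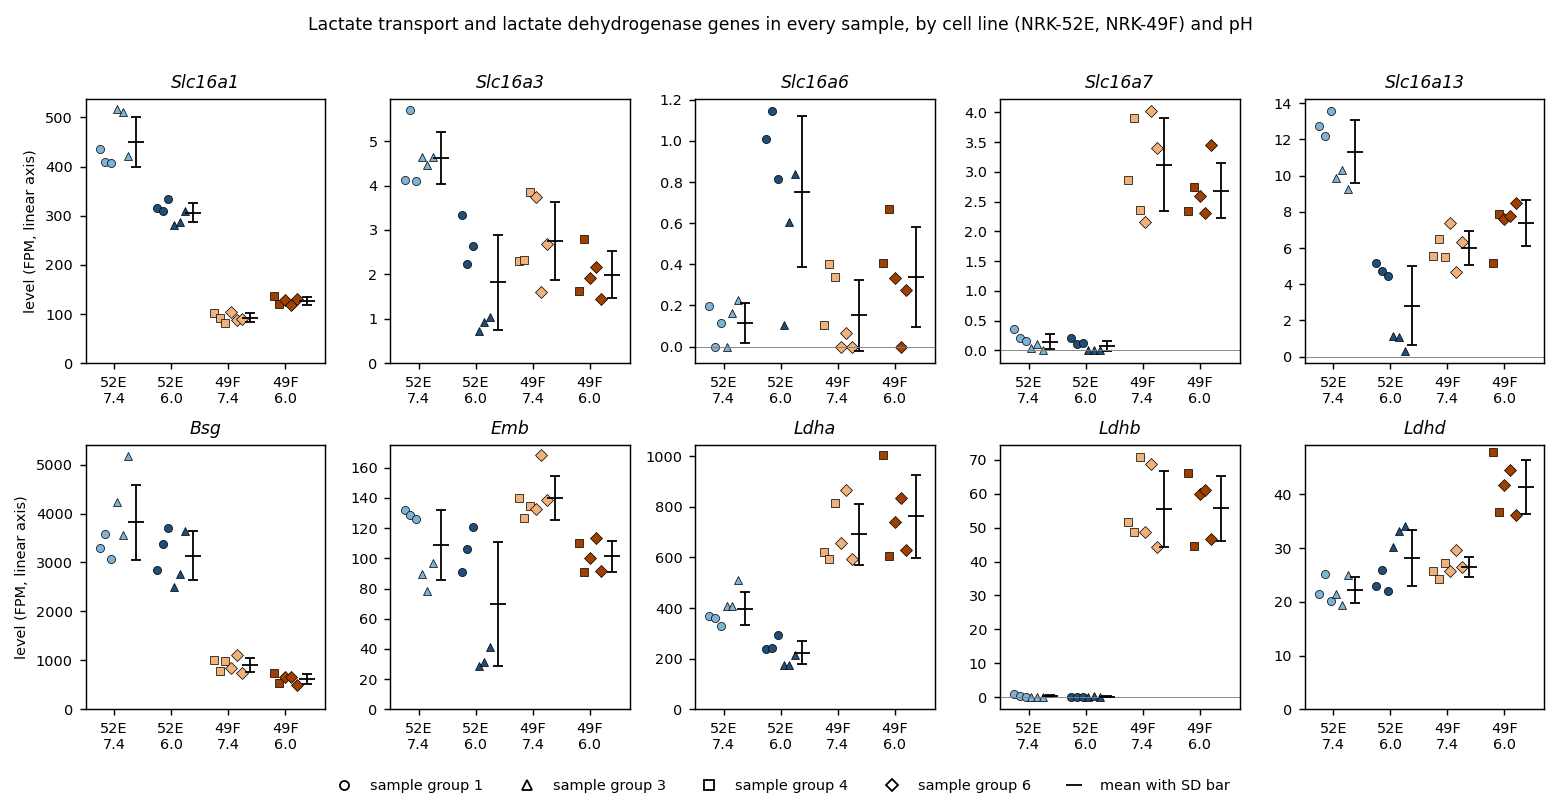
FPM (linear axes) of the 10 genes in each of the 23 samples, by cell line and pH, with the mean and its SD beside each group and a marker shape for each sample group. Slc16a1 sits between 407 and 516 FPM in NRK-52E cells at pH 7.4 and at 82.3 to 138 FPM in NRK-49F cells, while Ldhb reaches 44.4 to 70.9 FPM in NRK-49F cells and at most 1.04 FPM in NRK-52E cells.

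Slc16a1 (ENSRNOG00000019996, chromosome 2), the widely expressed transporter MCT1, was the only one of the 10 that was called in both lines with opposite signs, a pattern found in 4.18% of tested genes. In NRK-52E cells it ranged from 407 FPM (median 429) to 516 FPM at pH 7.4 and from 282 FPM (median 310) to 335 FPM at pH 6.0. In NRK-49F cells it ranged from 82.3 FPM (median 91.4) to 104 FPM at pH 7.4, and the 5 samples at pH 6.0 held 138, 120, 129, 119 and 131 FPM. The pH groups were separate in both lines, lower at pH 6.0 in NRK-52E cells and higher in NRK-49F cells. The log2 fold change was -0.55 (SE 0.08, adjusted p = 1.27e-06) in NRK-52E cells, a level 1.47-fold lower. The NRK-49F value was 0.45 (SE 0.08, adjusted p = 0.000148), a level 1.37-fold higher. The NRK-52E change minus the NRK-49F change was -1.0 (SE 0.11, adjusted p = 1.74e-07). Within sample groups 1 and 3 the fall was -0.38 and -0.72 on the log2 scale, and within groups 4 and 6 the rise was 0.48 and 0.43, each of them called. Ordered by level, NRK-52E cells at pH 7.4 came first, then NRK-52E cells at pH 6.0, NRK-49F cells at pH 6.0 and NRK-49F cells at pH 7.4, with no overlap between neighbours.

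Slc16a3 (ENSRNOG00000036677, chromosome 10) encodes MCT4, the low-affinity transporter that glycolytic cells use to export lactate. It had 14 to 147 counts in NRK-52E samples. Its level fell from 4.11 to 5.70 FPM (median 4.56) at pH 7.4 to 0.733 to 3.35 FPM (median 1.64) at pH 6.0 without overlap, with a log2 fold change of -1.32 (SE 0.29, adjusted p = 0.000429). The fall was smaller in sample group 1 (-0.75, adjusted p = 0.0351) than in group 3 (-2.34, adjusted p = 4.16e-06). At pH 6.0 the group 3 samples held 0.733, 0.938 and 1.04 FPM and the group 1 samples 3.35, 2.24 and 2.65 FPM. In NRK-49F cells Slc16a3 ranged from 1.60 FPM (median 2.504) to 3.85 FPM at pH 7.4 and was at 1.63, 2.80, 1.93, 2.17 and 1.44 FPM at pH 6.0. These groups overlapped, and the log2 fold change of -0.45 (95% interval -1.06 to 0.16, adjusted p = 0.299) was not called. The line difference in this change was -0.87 (SE 0.43, adjusted p = 0.107), and it was -1.01 (adjusted p = 0.0382) with the sample group as a block.

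Slc16a13 (ENSRNOG00000018785, chromosome 10) is a less studied family member that has been reported to carry lactate. Its fall in NRK-52E cells was the steepest among the 7 genes that passed the filter in both lines. Slc16a13 had 164 to 456 counts in NRK-52E samples at pH 7.4 and 6 to 153 counts at pH 6.0. In NRK-52E cells it ranged from 9.28 FPM (median 11.2) to 13.6 FPM at pH 7.4 and from 0.296 FPM (median 2.80) to 5.15 FPM at pH 6.0. The groups were far apart, and the 3 lowest samples, at 1.15, 1.103 and 0.296 FPM, all belonged to sample group 3. These samples held only 22, 20 and 6 counts, so the size of the fall in group 3 is limited by depth. The log2 fold change was -1.99 (SE 0.37, adjusted p = 5.19e-05), that is 3.98-fold lower, with -1.43 in group 1 and -3.54 in group 3. In NRK-49F cells the 5 acidic samples held 5.20, 7.87, 7.60, 7.79 and 8.50 FPM beside 4.66 to 7.39 FPM (median 5.96) at pH 7.4. Those groups overlapped, and the log2 fold change of 0.30 (95% interval -0.41 to 1.02, adjusted p = 0.578) was not called. The changes of the lines differed by -2.30 (SE 0.51, adjusted p = 0.000924).

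Few counts were found for Slc16a6 in either line and for Slc16a7 in NRK-52E cells. Slc16a6 (ENSRNOG00000000245, chromosome 10), which encodes MCT7, had 0, 0, 3, 3, 4 and 7 counts in NRK-52E samples at pH 7.4 and 2, 11, 17, 19, 21 and 28 counts at pH 6.0. It rose by 2.60 on the log2 scale (SE 0.71, adjusted p = 0.00278), from a mean of 0.117 FPM to 0.754 FPM. The control mean lay at the level of 3 counts, so the size of this fold depends on the model, and the gene passed the filter through the samples in which it was high. The sample with 2 counts, in sample group 3, overlapped the controls, and the log2 fold change was 2.98 (adjusted p = 0.00506) in group 1 and 2.03 (adjusted p = 0.0736) in group 3. NRK-49F samples had 0 to 9 counts at pH 7.4 and 0 to 11 counts at pH 6.0, with a log2 fold change of 1.17 (95% interval -0.39 to 2.72, adjusted p = 0.294). Slc16a7 (ENSRNOG00000007839, chromosome 7), the high-affinity transporter MCT2, had 0 to 13 counts in NRK-52E samples, where its log2 fold change was -1.05 (95% interval -2.31 to 0.21, adjusted p = 0.162). In NRK-49F cells Slc16a7 ranged from 2.16 FPM (median 3.13) to 4.03 FPM at pH 7.4 and was at 2.34, 2.74, 2.60, 2.31 and 3.44 FPM at pH 6.0. These groups overlapped, with a log2 fold change of -0.22 (95% interval -0.88 to 0.44, adjusted p = 0.667).

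Bsg (ENSRNOG00000008414, chromosome 7) encodes basigin, the chaperone of MCT1 and MCT4. NRK-49F samples ranged from 737 FPM (median 911) to 1113 FPM at pH 7.4, and the acidic samples held 736, 536, 652, 667 and 495 FPM. The groups were separated by about 1 FPM, and the log2 fold change was -0.56 (SE 0.15, adjusted p = 0.0061), a level 1.47-fold lower. Within sample groups 4 and 6 it was -0.53 (adjusted p = 0.0833) and -0.57 (adjusted p = 0.0384). The call was lost in fits of groups 1 and 4 alone (adjusted p = 0.0618) and of groups 3 and 6 alone (adjusted p = 0.0745). In NRK-52E cells Bsg ranged from 3071 FPM (median 3571) to 5171 FPM at pH 7.4 and from 2490 FPM (median 3112) to 3704 FPM at pH 6.0. The ranges overlapped, and the log2 fold change of -0.28 (95% interval -0.56 to -0.01, adjusted p = 0.0831) was not called, with -0.00 in sample group 1 and -0.54 (adjusted p = 0.0198) in group 3. The changes of the lines differed by 0.27 (95% interval -0.12 to 0.67, adjusted p = 0.297). In NRK-49F cells Slc16a1 thus rose while Bsg fell, and there were 8.14 to 12.7 Bsg counts per Slc16a1 count at pH 7.4 and 3.79 to 5.59 at pH 6.0. The ranges of this ratio did not overlap, which follows from the separation by pH of each of the genes and adds nothing to it. In NRK-52E cells this ratio was 6.99 to 12.3 at pH 7.4 and 8.83 to 11.7 at pH 6.0, with overlap.

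Emb (ENSRNOG00000060329, chromosome 2) encodes embigin, a relative of basigin that escorts MCT2 and can also pair with MCT1. In NRK-49F cells it ranged from 127 FPM (median 137) to 168 FPM at pH 7.4, and the acidic samples, at 110, 90.8, 100, 113 and 91.9 FPM, all lay below. The log2 fold change of -0.47 (SE 0.28, adjusted p = 0.223) was not called in the joint model of both lines, but was called with each line fitted alone (-0.48, adjusted p = 0.000759) and with the sample group as a block (-0.47, adjusted p = 0.0243). In NRK-52E cells Emb ranged from 78.2 FPM (median 112) to 132 FPM at pH 7.4 and from 28.6 FPM (median 66.2) to 121 FPM at pH 6.0. These pooled ranges overlapped, and the sample groups lay apart. In group 1 the controls held 132, 129 and 126 FPM and the acidic samples 90.8, 106 and 121 FPM, while in group 3 the controls held 89.5, 78.2 and 96.8 FPM and the acidic samples 28.6, 31.1 and 41.6 FPM. Both groups were lower at pH 6.0 without overlap, by -0.28 (adjusted p = 0.0899) in group 1 and -1.38 (adjusted p = 6.04e-08) in group 3. The pooled log2 fold change was -0.64 (SE 0.26, adjusted p = 0.0403), and it was not called when any 1 of samples A021, A022, A023, A036, A037 or A038 was left out, with adjusted p between 0.0743 and 0.0992. It was also not called with RLE scaling (-0.60, adjusted p = 0.0508), without a filter beyond 1 count (-0.62, adjusted p = 0.0513) and with each line fitted alone (-0.55, adjusted p = 0.153), whereas the sample group as a block gave -0.82 (adjusted p = 6.88e-05).

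**Figure D2:**
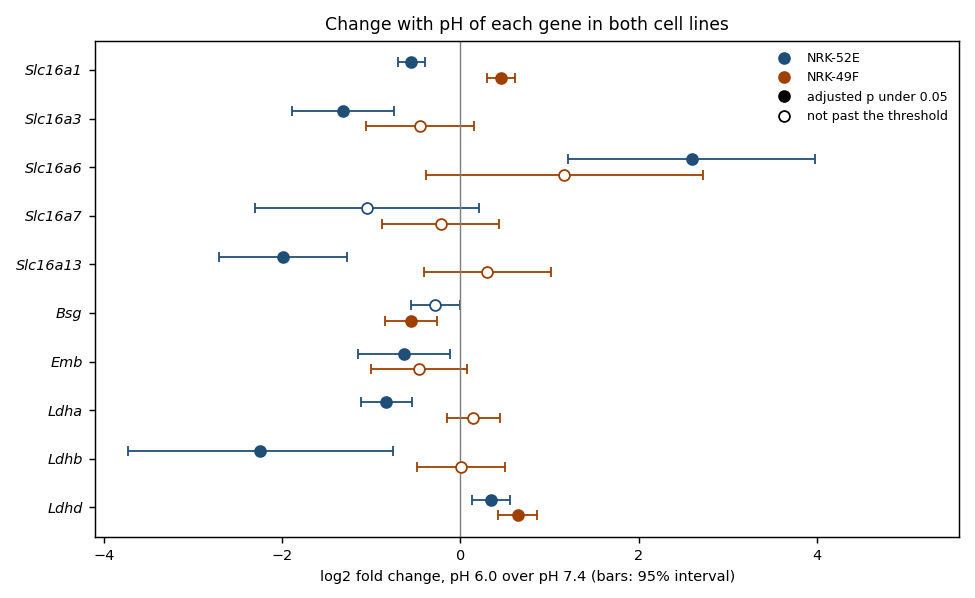
Log2 fold change from pH 7.4 to pH 6.0 for each of the 10 genes in NRK-52E (blue) and NRK-49F cells (brown), with 95% intervals and filled points for an adjusted p under 0.05. Slc16a1 is at -0.55 and 0.45 in the 2 lines, and Ldhd is the only gene whose point lies above 0 and is filled in both.

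Ldha (ENSRNOG00000013009, chromosome 1) encodes the A subunit of lactate dehydrogenase. In NRK-52E cells it ranged from 331 FPM (median 387) to 513 FPM at pH 7.4 and from 174 FPM (median 227) to 294 FPM at pH 6.0. Every acidic sample was below every control, with a log2 fold change of -0.83 (SE 0.15, adjusted p = 3.06e-05), that is 1.78-fold lower. The change was -0.45 (adjusted p = 0.0455) in sample group 1 and -1.23 (adjusted p = 9.14e-06) in group 3, and with groups 1 and 4 fitted alone it was -0.44 (adjusted p = 0.0603). In NRK-49F cells Ldha ranged from 595 FPM (median 638) to 867 FPM at pH 7.4 and was at 1004, 606, 739, 835 and 628 FPM at pH 6.0. These ranges overlapped, and the log2 fold change of 0.14 (95% interval -0.16 to 0.44, adjusted p = 0.527) was not called. Between the lines the changes differed by -0.98 (SE 0.21, adjusted p = 0.000653), and by -0.70 (adjusted p = 0.0861) in sample groups 1 and 4 alone. Since reads that map to several places were counted, Ldha can hold reads of processed copies of the gene.

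Ldhb (ENSRNOG00000013000, chromosome 4), the gene of the B subunit, was well counted in NRK-49F samples and nearly absent from NRK-52E samples. NRK-49F samples ranged from 44.4 FPM (median 50.2) to 70.9 FPM at pH 7.4 and were at 66.2, 44.6, 59.97, 61.0 and 46.6 FPM at pH 6.0. The groups overlapped fully, with a log2 fold change of 0.01 (95% interval -0.49 to 0.50, adjusted p = 0.994). In NRK-52E samples there were 37, 7, 3, 1, 2 and 2 counts at pH 7.4 and 1, 3, 0, 1, 4 and 0 counts at pH 6.0. The fitted log2 fold change of -2.25 (SE 0.76, adjusted p = 0.0131) rested on sample A021 with its 37 counts, and without it the value was -0.99 (adjusted p = 0.231). Between the lines the change likewise differed by -2.25 (SE 0.80, adjusted p = 0.0278) with A021 and by -1.0 (adjusted p = 0.287) without it, and leaving out A026 or A038 also ended that call (adjusted p = 0.0717 and 0.0542). That sample, of sample group 1, was above each of the other NRK-52E controls in 6 of the 10 fibroblast markers, among them Pdgfra with 4.73 FPM against at most 2.21 FPM and Lum with 2.35 FPM against at most 0.70 FPM. It was below each of them in Pdgfrb and Col3a1, and Dcn and Thy1 were at 0 in all of these controls. Its Ldhb level was 1.87% of the NRK-49F mean at pH 7.4, its Slc16a7 level 11.7%, its levels of Pdgfra, Col1a1, Col1a2, Lum and Vcam1 1.18% to 2.37%, and that of Postn 34.8%. The part of this in the Ldhb result was not tested.

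The balance of both subunits was compared between samples as the share of Ldhb in the counts of Ldha and Ldhb together, which is not corrected for gene length. In NRK-49F cells this share was 6.90% to 8.02% (median 7.45%) at pH 7.4 and 6.19%, 6.85%, 7.51%, 6.81% and 6.90% at pH 6.0, so that the pH values overlapped. In NRK-52E cells it was 0.0112% to 0.281% (median 0.0304%) at pH 7.4 and 0% to 0.125% (median 0.0262%) at pH 6.0. The highest value, in A021, had an exact (Clopper-Pearson) 95% interval of 0.198% to 0.387%, and the 2 samples with 0 counts allow shares of up to 0.0297% and 0.0686% at 3 counts, or 0.0365% and 0.0843% as the upper bounds of the exact interval. The share differed by cell line in all 23 samples, which is a description, since Ldhb passed the filter through NRK-49F samples only. It showed no separation by pH in either line. In NRK-52E cells it rested on at most 37 Ldhb counts per sample, so that a difference by pH could be missed there. Slc16a3 was set beside Slc16a1 in the same way, with 0.877 to 1.40 Slc16a3 counts per 100 Slc16a1 counts in NRK-52E cells at pH 7.4 and 0.260 to 1.06 at pH 6.0. In NRK-49F cells there were 1.82 to 4.68 at pH 7.4 and 1.11 to 2.34 at pH 6.0, and these ranges overlapped in both lines.

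Ldhd (ENSRNOG00000019036, chromosome 19) encodes the mitochondrial dehydrogenase of D-lactate, an isomer that comes from the methylglyoxal pathway and from bacteria. It was the only one of the 10 that was called higher in both lines. NRK-49F samples ranged from 24.2 FPM (median 26.2) to 29.6 FPM at pH 7.4 and were at 47.8, 36.6, 41.8, 44.5 and 36.2 FPM at pH 6.0. All acidic samples were above all controls, with a log2 fold change of 0.64 (SE 0.11, adjusted p = 0.00012), that is 1.56-fold higher. In NRK-52E cells it ranged from 19.5 FPM (median 21.5) to 25.1 FPM at pH 7.4 and from 22.01 FPM (median 28.1) to 34.1 FPM at pH 6.0, with overlap, and rose by 0.34 (SE 0.11, adjusted p = 0.00844). That rise was 0.09 (adjusted p = 0.582) in sample group 1 and 0.57 (adjusted p = 0.000616) in group 3, whereas in NRK-49F cells it was 0.72 and 0.58 in groups 4 and 6. Between the lines the rise differed by -0.30 (95% interval -0.61 to 0.01, adjusted p = 0.133). This difference was called in 1 of 36 alternatives, with sample groups 1 and 4 alone (-0.62, adjusted p = 0.0401).

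Within NRK-52E cells the pH change of several genes depended on the sample group. In a model with the cell line, pH and sample group, which was chosen after seeing the data, 6 of the 10 genes were called in group 1 and 7 in group 3, beside 48.9% and 57.4% of tested genes. The 6 include Slc16a6 and Ldhb with their few counts, and the 7 are the genes that passed the filter in both lines. The change in group 3 minus that in group 1 was called for 3 of the 10, beside 10.6% of tested genes. It was -1.59 (SE 0.43, adjusted p = 0.0223) for Slc16a3, -2.11 (SE 0.37, adjusted p = 0.00084) for Slc16a13 and -1.10 (SE 0.19, adjusted p = 0.00091) for Emb, and it was -0.78 (SE 0.26, adjusted p = 0.0559) for Ldha. In each of these 4 genes the fall was larger in group 3. Among the controls alone 1 of the 10 differed between groups 3 and 1, beside 2.96% of tested genes, namely Emb with -0.55 (adjusted p = 0.0305). At pH 6.0 there were 5, beside 27.8% of tested genes, with Slc16a3 at -1.60, Slc16a13 at -2.497, Emb at -1.65 and Ldhd at 0.46. The fifth, Slc16a7, had 0 counts in each of the 3 group 3 samples at pH 6.0 and 2 to 4 in group 1, and since it passed the filter through NRK-49F samples only, nothing is read from its call. In NRK-49F cells 2 genes were called in group 4 and 4 in group 6, beside 23% and 21.2% of tested genes. For the change in group 6 minus that in group 4, edgeR's quasi-likelihood test called 0 of the 10 and 0 of all tested genes (0%), while 596 genes and 0 of the 10 had an unadjusted p under 0.05.

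**Figure D3:**
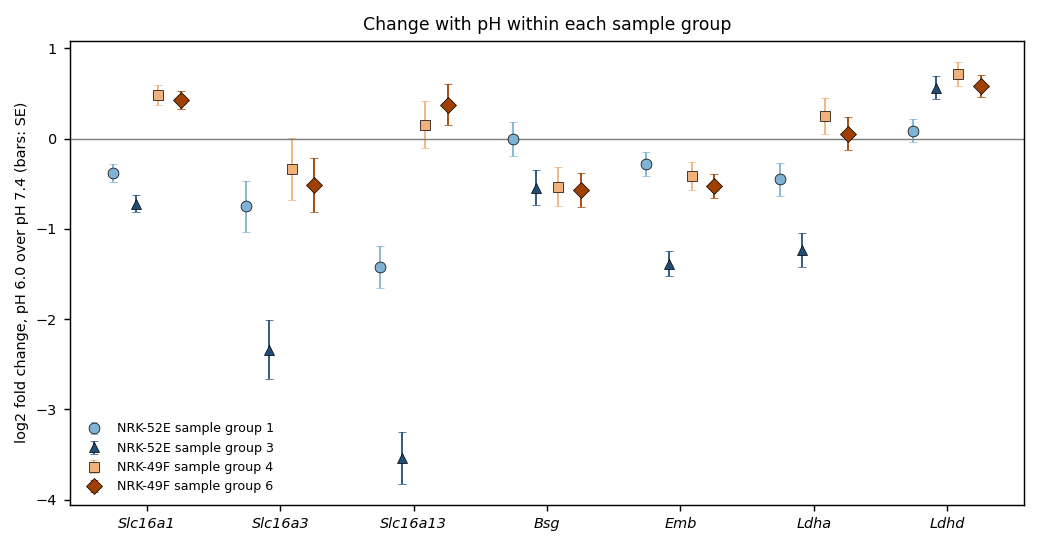
Log2 fold change from pH 7.4 to pH 6.0 (bars, SE) within each sample group for 7 of the 10 genes, leaving out Slc16a6, Slc16a7 and Ldhb with their low counts in NRK-52E samples. Slc16a13 is at -1.43 in group 1 and -3.54 in group 3 of the NRK-52E samples, while groups 4 and 6 of the NRK-49F samples lie close together for each gene.

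Between the cell lines, 8 of the 10 genes differed at pH 7.4, 4 higher and 4 lower in NRK-52E cells, beside 68.8% of tested genes (35% higher and 33.9% lower). At pH 6.0 there were 7, with 2 higher and 5 lower, beside 75.5% of tested genes (36.6% higher and 38.9% lower). Among the 7 genes that passed the filter in both lines, 6 differed at pH 7.4 and 5 at pH 6.0. FPM values did not overlap between the lines for 7 genes at either pH, beside 50.7% of tested genes at pH 7.4 and 57.3% at pH 6.0. At either pH these include Slc16a7 and Ldhb, which passed the filter through NRK-49F samples only, so that the count of 7 is a description. Slc16a1 and Bsg were higher in NRK-52E cells, by 2.27 (SE 0.08, adjusted p = 2.98e-17) and 2.07 (SE 0.15, adjusted p = 5.16e-12) on the log2 scale at pH 7.4. The gap of Slc16a1 narrowed to 1.27 (SE 0.08, adjusted p = 9.93e-13) at pH 6.0, while that of Bsg was 2.35 (SE 0.16, adjusted p = 1.68e-12). Ldha was lower in NRK-52E cells, by -0.80 (SE 0.15, adjusted p = 3.77e-05) at pH 7.4 and -1.77 (SE 0.15, adjusted p = 2.17e-10) at pH 6.0. Slc16a13 changed sides, from 0.92 (SE 0.35, adjusted p = 0.0223) at pH 7.4 to -1.38 (SE 0.38, adjusted p = 0.00218) at pH 6.0, though with sample groups 1 and 4 alone the latter was -0.46 (adjusted p = 0.064). Slc16a3 was higher in NRK-52E cells at pH 7.4 by 0.75 (adjusted p = 0.0227), which was not called without the NRK-49F sample A052 (0.63, adjusted p = 0.0591), and the value at pH 6.0 was -0.11 (adjusted p = 0.754).

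Slc16a7 and Ldhb passed the filter through NRK-49F samples only, so that they had to differ between the lines, and their levels are given as a description. The highest NRK-52E sample had 0.364 FPM of Slc16a7 and the lowest NRK-49F sample 2.16 FPM. For Ldhb the highest NRK-52E sample had 1.04 FPM and the lowest NRK-49F sample 44.4 FPM. Ldhd was lower in NRK-52E cells by -0.26 (adjusted p = 0.0356) at pH 7.4 and -0.56 (adjusted p = 9.21e-05) at pH 6.0. The first of these was not called when any 1 of 7 samples (A021, A023, A033, A034, A041, A052 or A053) was left out, with adjusted p between 0.0505 and 0.0832, nor in sample groups 1 and 4 alone (-0.22, adjusted p = 0.153). With all samples Emb did not pass the test at either pH, with -0.37 (adjusted p = 0.221) and -0.53 (adjusted p = 0.0812). With sample groups 3 and 6 alone it was called at both, with -0.73 (adjusted p = 0.000854) and -1.59 (adjusted p = 8.66e-07). With groups 1 and 4 alone the value at pH 6.0 was 0.07 (adjusted p = 0.641). The line difference in the pH change of Emb was -0.86 (adjusted p = 0.00588) in groups 3 and 6 and 0.13 (adjusted p = 0.638) in groups 1 and 4.

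Other members of the transporter family, the chaperone neuroplastin (Nptn), the lactate receptor Hcar1 and the remaining dehydrogenase genes were listed as well. Of these 15 genes 7 passed the filter, and 5 were called in NRK-52E cells (1 higher, 4 lower) and 4 in NRK-49F cells (all lower), beside 61.2% and 28.9% of all tested genes. Slc16a4, a family member with an unsettled substrate, fell in both, from a mean of 55.4 to 16.5 FPM in NRK-52E cells (log2 fold change -1.75, SE 0.12, adjusted p = 1.84e-11) and from 22.4 to 16.2 FPM in NRK-49F cells (-0.47, SE 0.13, adjusted p = 0.00678). Nptn fell from 197 to 123 FPM in NRK-52E cells (-0.68, adjusted p = 6.65e-09) and from 252 to 194 FPM in NRK-49F cells (-0.38, adjusted p = 0.000234). Slc16a11 fell in NRK-52E cells from 3.41 to 1.45 FPM (adjusted p = 0.00672), with a called difference between the lines (adjusted p = 0.0323). The sodium-coupled lactate transporters Slc5a8 and Slc5a12, which proximal tubule cells use, had at most 6 counts and 0 counts in any sample, and Hcar1 had at most 2.

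Of 19 tested glycolysis genes, 12 were called in NRK-52E cells, 6 in each direction, beside 61.2% of all tested genes (24.7% higher and 36.6% lower). In NRK-49F cells 10 were called, all of them higher, beside 28.9% of all tested genes (14.5% higher). The median log2 fold changes were -0.10 and 0.40. The changes of the lines differed by the test for 11 and not for 8, beside 41.4% of all tested genes, and 9 of the 11 were lower in NRK-52E cells. Pfkp, the platelet-type phosphofructokinase, rose in NRK-49F cells from a mean of 82.0 to 293 FPM (log2 fold change 1.84, SE 0.24, adjusted p = 3.33e-06). The liver-type subunit Pfkl fell in NRK-52E cells from 98.2 to 43.4 FPM (-1.18, SE 0.16, adjusted p = 1.12e-06), and the aldolase Aldoc rose there from 5.39 to 32.7 FPM (2.60, SE 0.20, adjusted p = 8.62e-11).

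Of 16 tested genes of mitochondrial pyruvate entry and use, 11 rose and 2 fell in NRK-52E cells, with a median log2 fold change of 0.44, beside 24.7% higher and 36.6% lower among all tested genes. In NRK-49F cells 5 rose and 2 fell, with a median of 0.15, beside 14.5% higher and 14.4% lower. Pc, the pyruvate carboxylase that starts gluconeogenesis, rose from 12.5 to 50.4 FPM in NRK-52E cells (2.01, SE 0.11, adjusted p = 3.72e-13). Pdk4, a kinase that switches off pyruvate dehydrogenase, went up from 10.3 to 28.5 FPM in NRK-52E cells (1.47, adjusted p = 2.07e-05), while in NRK-49F cells it had 1 to 31 counts at pH 7.4 and 0 to 4 counts at pH 6.0 (adjusted p = 0.0115), too few for a fold. Gpt2, the mitochondrial alanine transaminase, rose in NRK-49F cells from 37.6 to 60.2 FPM (0.68, adjusted p = 2.04e-07).

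The shuttles that reoxidise cytosolic NADH, as lactate dehydrogenase also does when it makes lactate, included 9 tested genes. All 9 were called in NRK-52E cells, 8 lower and 1 higher, with a median of -0.57, and 1 was called in NRK-49F cells, with a median of 0.01, beside 61.2% (36.6% lower) and 28.9% of all tested genes. Slc25a13, the aspartate-glutamate carrier, fell in NRK-52E cells from 19.6 to 7.26 FPM (-1.43, SE 0.11, adjusted p = 1.81e-10). Got1, the cytosolic aspartate transaminase, rose by 0.27 (adjusted p = 0.000819) there, and its mitochondrial counterpart Got2 rose in NRK-49F cells from 114 to 164 FPM (0.52, adjusted p = 0.000538).

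Of the transcription factors that are known to act on Ldha, Slc16a1 or Slc16a3, 5 passed the filter. Myc fell in NRK-52E cells from a mean of 18.5 to 9.71 FPM (-0.93, SE 0.09, adjusted p = 3.96e-09), and its value in NRK-49F cells was 0.20 (adjusted p = 0.0961), with a called difference between the lines of -1.14 (adjusted p = 1.95e-07). Its partner Max rose from 62.9 to 150 FPM in NRK-52E cells (1.26, adjusted p = 6.04e-12), and the NRK-49F mean rose from 83.4 to 113 FPM (0.44, adjusted p = 0.000331). Hif1a rose from 84.0 to 108 FPM in NRK-52E cells (0.35, adjusted p = 0.000568) and was at -0.19 (adjusted p = 0.106) in NRK-49F cells. Ppargc1a had 0 counts in NRK-52E samples and at most 10 in NRK-49F samples.

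**Figure D4:**
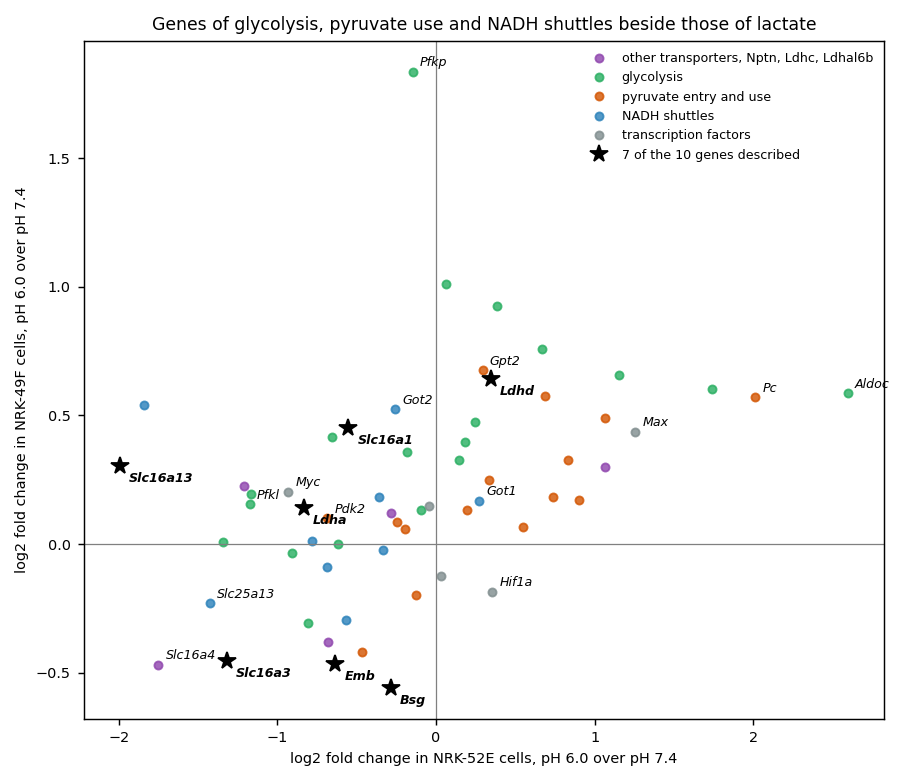
Log2 fold changes from pH 7.4 to pH 6.0 in NRK-52E cells (horizontal axis) and in NRK-49F cells (vertical axis) for tested genes of the 5 lists (coloured by list, genes with at most 10 counts in every sample of a condition left out) and for 7 of the 10 lactate genes (stars). Pfkp lies at 1.84 on the NRK-49F axis, Aldoc at 2.60 on the NRK-52E axis, and Slc16a1 lies in the upper left quadrant at -0.55 and 0.45.

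For the 4 lactate genes with the smallest p in the test of the difference between the lines, the 3 most similar genes were taken by Pearson's r of log2(FPM + 1) over the 23 samples. The samples share 2 cell lines and both pH values, so the points are not independent, and r is given as a description. Slc16a1 was most like Atp9a (r = 0.985), Tle4 (r = 0.984) and Chn2 (r = 0.982). Among the 3 genes most like Ldha were Dtnbp1 (r = 0.987) and Poll (r = 0.987). Slc16a13 was most like Ltbp3 (r = 0.954), Atxn7l2 (r = 0.951) and Spaca6 (r = 0.951), and Ldhb was most like Cdx2, Pla2g2a and Paqr4 with r of 0.999 each. Ldhb was among the 4 through a difference that was not called without A021 (adjusted p = 0.287).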

How the data were processed

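The authors made poly(A) libraries, mapped read pairs with HISAT2 2.1.0 (version per the submitters' processing notes) and used featureCounts to count reads per Ensembl gene over its exons, including those with several mapping positions. The deposited rat table holds these raw counts without normalization. The labels name the genome build rn6 and the methods of the study rn7, so no coordinates of genes are given, and the strand setting is not given in the sources used here. The labels and the methods also differ in the bicarbonate of the growth medium. Of the count columns, 23 carry labels, and the other 13 columns matched no label and were not used here. Human samples were not analysed here.

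The analysis used edgeR 4.0.16 under R 4.3.3. The filter was filterByExpr (minimum count 10, minimum total 15), libraries were scaled by TMM, and 1 quasi-likelihood model with 4 conditions was fitted to all 23 samples. Contrasts gave the change with pH in each line, the difference between both changes and the lines at each pH, with Benjamini-Hochberg adjustment over 14777 genes and a threshold of 0.05. The SE is the absolute log2 fold change divided by the square root of F, and 95% intervals span 1.96 SE. FPM are edgeR's cpm values. Intervals and limits for counts cover counting error only, since reads are not independent molecules. Replicates of a condition were compared, and in all 55 pairs counts differed by more than sampling noise (chi-square per degree of freedom at least 5.63). The members, the 5 lists of other genes and the markers were chosen with earlier results of these data known. Named are the 10 members, the other genes of their family, per list the called gene with the largest rise and fall at a mean of at least 5 FPM, 3 similar genes for each of 4 members, Myc, Hif1a, Ppargc1a and the markers. A few genes this rule names are left out of the text. The fit was tested on simulated counts with known changes. Alternatives changed the scaling, the test (DESeq2 1.42.0 among them), threshold, filter, depth and samples. Figures were drawn with matplotlib 3.10.9.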

Additional observations from a re-analysis of the deposited data

Results flagged for a closer look

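Among the 40 sets of FPM values (10 genes in 4 conditions) 4 held a sample far from the others by Dixon's test, and chance flags about 1 in 20 such sets. They were Slc16a3 in the NRK-52E control A022 (5.7 FPM, median of its group 4.56), Slc16a13 in the acidic NRK-49F sample A042 (5.2 FPM, median 7.79), Emb in the NRK-49F control A052 (168 FPM, median 137) and Ldhb in the NRK-52E control A021 (1.04 FPM, median 0.113). The 4 samples are different ones.

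The change with pH differed between the lines by the test of that difference for Slc16a1 (-1.0), Slc16a13 (-2.30), Ldha (-0.98) and Ldhb (-2.25), each as the NRK-52E log2 fold change minus the NRK-49F value. For Ldhb this held with A021 and not without it. Within NRK-52E cells the change in sample group 3 minus that in sample group 1 was called for Slc16a3 (-1.59), Slc16a13 (-2.11) and Emb (-1.10). What separates the sample groups was not tested.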

How the results depend on the processing

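Of 1771 values of the 10 genes under the alternatives, 1671 kept their direction and their side of the threshold, 57 kept the direction and lost the threshold, 17 gained it and 26 changed sign. When a change of more than 1 log2 unit was required, 2 (of 8) genes were called in NRK-52E cells, 0 (of 3) in NRK-49F cells, 1 (of 4) for the difference and 4 (of 8) between lines at pH 7.4. With at least 10 counts in every sample 6 of the 10 genes were left, and 5, 2, 5 and 4 were called in NRK-52E cells, for the difference and between the lines at pH 7.4 and pH 6.0. In NRK-52E cells 5 were called with each line alone (7 genes left, beside 62.3% of the genes then tested) and with sample groups 1 and 4 alone. At an adjusted p under 0.01, 5 were called between lines at pH 7.4. Leaving out 1 sample gave 6 to 8 in NRK-52E cells, 3 to 3 in NRK-49F cells, 3 to 5 for the difference, and 6 to 8 and 7 to 8 between the lines at pH 7.4 and pH 6.0. Where no share of all tested genes stands beside them, these counts describe the 10 genes only, and nothing is read from them. Values that changed sign were not called in the main fit, except Ldhb in NRK-52E cells. With sample groups 1 and 4 alone they were Bsg in NRK-52E cells (0.00357), Ldhb in NRK-49F cells (-0.0411), the difference for Emb (0.13), and Slc16a3 (0.31) and Emb (0.0702) between lines at pH 6.0, and with groups 3 and 6 alone Ldhb in NRK-52E cells (0.0115). Ldhb in NRK-49F cells was -0.00458 with RLE scaling, -0.00340 with upper quartile scaling, -0.00577 with DESeq2, -0.000665 without a filter, -0.00373 with each line alone and -0.0638 to 0.0865 without single samples. Leaving out 1 sample also turned Slc16a6 between lines at pH 7.4 (-0.493 to 0.438) and Slc16a3 at pH 6.0 (-0.356 to 0.0487). Libraries thinned to the smallest gave an adjusted p of 0.0856 for Ldhb in NRK-52E cells. The median of all tested genes in NRK-52E cells was -0.12 with TMM, -0.08 with RLE and -0.14 with upper quartile scaling. With that stricter test, genes called of all tested fell from 9049 to 1978 in NRK-52E cells, from 4270 to 294 in NRK-49F cells, from 6120 to 966 for the difference, and from 10170 to 3775 and 11155 to 4977 between the lines. In NRK-49F cells there were 2661 at an adjusted p under 0.01 and 2702 with groups 3 and 6 alone, and for the difference 3248 with groups 1 and 4 alone. No paired analysis was possible because replicate codes are not shared between groups. Where no cause is given it was not tested. Genes with few counts (Slc16a6, Slc16a7 and Ldhb in NRK-52E cells) are limited by depth.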
